A study of Mus musculus with 6 samples.

Results

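The cytosolic ribosomal protein genes encode the proteins of the ribosome that works in the cytoplasm, the Rps genes those of the small subunit and the Rpl genes those of the large subunit. Here they were taken as all genes with a probe set of a single platform symbol made of Rpl or Rps and a number, with an optional letter, l or x, together with Rplp0, Rplp1, Rplp2 and Rpsa. Ribosomal S6 kinase genes and pseudogenes named -ps were left out. The rule found 46 genes among 18193 measured genes, 22 of the small and 24 of the large subunit, through 100 of 45037 probe sets. Where a gene had several, the brightest probe set over all 6 arrays stood for it.

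The arrays held RNA of distal retinal progenitor cells (RPCs) of embryonic day 12 mouse embryos of the ICR strain. The 3 mutant pools carried Pax6 flox and the alpha-Cre transgene, and the 3 control pools carried alpha-Cre with no floxed Pax6. In both groups alpha-Cre, which acts in the distal part of the optic cup and comes with eGFP, marked the cells that were sorted by FACS. The comparison asks how the loss of Pax6, a homeodomain transcription factor gene of the early eye, changed the transcripts of these progenitors. Deletion can occur only in cells that express Cre, each sample was a pool of sorted cells, and the labels call the 3 pools of a group biological repeats.

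Ribosomal proteins are made in matched amounts, since each ribosome holds one copy of most of them. Many of their mRNAs start with a terminal oligopyrimidine (TOP) tract, a run of C and T right at the 5′ end, through which the mTORC1 kinase pathway controls their translation. In proliferating progenitors of the nervous system ribosome production is high and is known to fall as cells differentiate. Free ribosomal proteins such as Rpl5 and Rpl11 can also bind Mdm2, the ubiquitin ligase that keeps p53 low.

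The bases around the annotated start are shown for 8 members, 6 with a run of at least 8 C or T and 2 with a shorter one, because this is where a TOP tract would lie. Windows of 30 bases, 15 before the annotated first base and 15 from it on, were read from the RefSeq promoter sequences of assembly GRCm38.p6, 5′ to 3′ on the gene's own strand. Capitals mark the longest run of C and T.
Rpl7a (chr2:26910792-26910821, plus strand): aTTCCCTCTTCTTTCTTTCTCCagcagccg
Rpl35 (chr2:39005117-39005146, minus strand): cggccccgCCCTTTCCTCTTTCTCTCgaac
Rps18 (chr17:33955651-33955680, minus strand): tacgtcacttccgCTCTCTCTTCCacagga
Rps6 (chr4:86857353-86857382, minus strand): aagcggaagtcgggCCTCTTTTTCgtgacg
Rps27 (chr3:90213634-90213663, minus strand): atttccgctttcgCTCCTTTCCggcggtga
Rps27l (chr9:66946071-66946100, plus strand): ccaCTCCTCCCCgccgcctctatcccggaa
Rpl12 (chr2:32961697-32961726, plus strand): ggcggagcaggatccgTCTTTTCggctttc
Rps4x (chrX:102189377-102189406, minus strand): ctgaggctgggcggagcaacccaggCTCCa
The run was 21 bases long in Rpl7a, 18 in Rpl35, 11 in Rps18, 10 in Rps6, 9 in both Rps27 and Rps27l, 7 in Rpl12 and 4 in Rps4x. In Rps27l it ended before the annotated first base, and in Rpl12 and Rps4x it began after that base.

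Of the 46 members, 40 had a promoter sequence, with 48 start sites among them. The other 6 were Rpl7, Rpl8, Rps14, Rps20, Rps29 and Rps4l. A run of at least 8 C or T within 15 bases of the start stood in 18 of these 48 windows (37.5%), against 12.0% of all 32851 promoter windows. In the whole promoter windows, from 250 bases before the start to 50 bases after it, the letters CCGGAA on either strand, which form the core that ETS factors bind, were found in 54.2% of members' windows against 14.9% of all windows. The longer form CCGGAAGT, which contains the first, was found in 20.8% against 3.89%. The letters AAGATGGC, part of the site that Yy1 binds, stood in 6.25% against 2.75%, and the TATA box letters TATAAA in 10.4% against 13.6%. These matches describe the letters in the windows only.

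Across the family the transcripts of mutant and control RPCs lay close to each other. No member differed by the call rule of the methods, a fold change of at least 1.5 with p under 0.05 and p adjusted by Benjamini and Hochberg under 0.10 in limma, whereas over all genes 2.28% were higher and 0.918% were lower by this rule. With the adjusted p alone, 1 member, Rps4l, was higher and none was lower, against 7.15% and 5.22% of all genes. At an unadjusted p under 0.05 there were 3 higher members (Rps4l, Rpl3l and Rps27l) and 1 lower (Rps6), of 46, against 12.8% higher and 11.6% lower over all genes. A limma fit whose variance followed the intensity was also made. It leaves the fold changes as they are, and as no member reached 1.5-fold it could give no call. With the adjusted p alone, this fit gave 3 higher and 2 lower members, against 9.59% and 7.82% of all genes.

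The median log2 fold change, mutant minus control, was 0.012 over the 46 members, with quartiles of -0.022 and 0.039, and 25 members were above 0 and 21 below it. Over all 18193 genes the median was -0.011, with quartiles of -0.112 and 0.098. A change within 0.1 on the log2 scale was seen for 39 of the 46 members (84.8%) and for 47.6% of all genes. The 95% interval of the log2 fold change lay inside 1.5-fold in both directions for each of the 46 members, as for 87.6% of all genes, and inside 1.25-fold for 42 of them (91.3%), as for 52.5% of all genes. The interval reached 0.135 to either side of the estimate at the median and 0.231 at most.

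**Figure D1:**
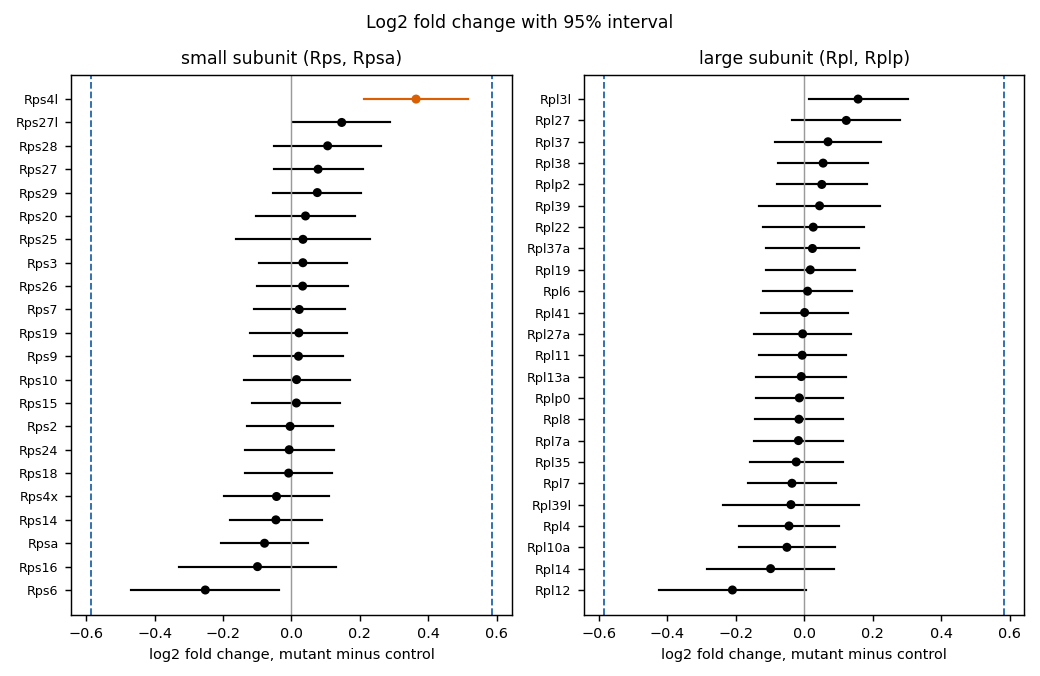
Log2 fold change of each member, mutant minus control, on the horizontal axis, with small-subunit genes at left and large-subunit genes at right. Points are limma estimates, bars their 95% intervals (n = 3 arrays each), dashed lines a 1.5-fold change, and orange marks an adjusted p under 0.10. All 46 bars lie between the dashed lines, and Rps4l at 0.36 is the only orange gene.

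Both subunits centred near 0. The median log2 fold change was 0.021 for the 22 small-subunit genes, of which 14 were above 0, and -0.005 for the 24 large-subunit genes, of which 11 were above 0. On single arrays, the median deviation of the members from each gene's mean over the 6 arrays was 0.009, -0.009 and 0.015 in mutant replicates 1, 2 and 3, against -0.012, 0.005 and -0.004 in control replicates 1, 2 and 3. The summed linear intensity of the members was 162429, 159719 and 162421 on the mutant arrays and 159582, 161644 and 160652 on the control arrays. The groups overlapped in both measures, with mutant replicate 2 among the controls. RMA gives all arrays one distribution, and members were 33 of the 124 genes with a mean log2 intensity above 11. How far that step would hide a shift of the whole family was not tested.

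**Figure D2:**
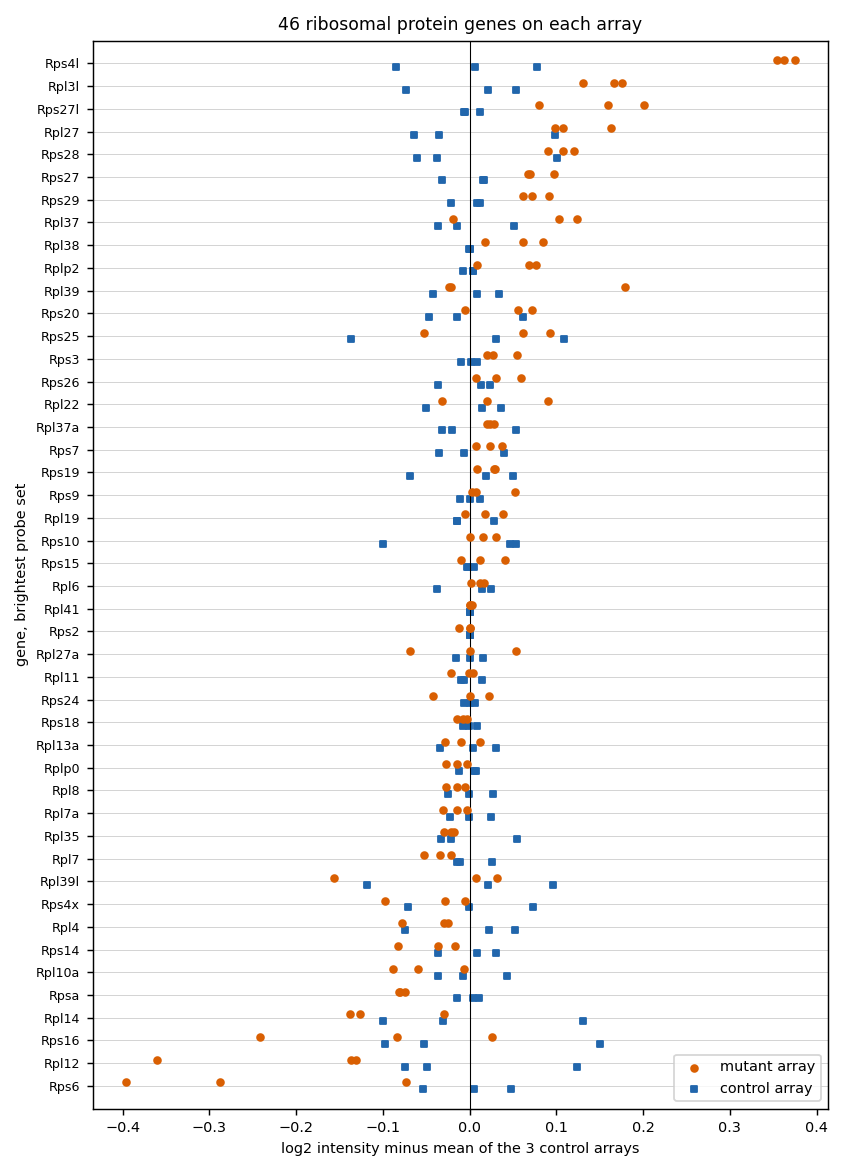
Log2 intensity of each member on each array minus the mean of the 3 control arrays (horizontal axis), for all 46 members ordered by fold change (vertical axis). Orange circles are the 3 mutant arrays and blue squares the 3 control arrays. In most rows the circles and squares overlap near 0, and the Rps4l circles stand 0.36 above the control mean.

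All 3 mutant arrays lay above all 3 control arrays for 8 members (Rps3, Rplp2, Rpl38, Rps29, Rps27, Rps27l, Rpl3l and Rps4l), or 8 of 46, while 17% of all genes did so. They lay below them for 4 members (Rps6, Rpl12, Rpsa and Rpl7), while 16.4% of all genes did so. The first share was close to that of all genes and the second was below it.

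Most members were at the top of the intensity scale. For 33 of the 46 the mean log2 intensity over the 6 arrays was above 11, where only 124 of all genes lay, and the highest value on any array was 12.94 to 12.98. In these 33 members the log2 fold change ranged from -0.08 to 0.12, and 31 were within 0.1. Of the 124 genes that bright, 71.8% were within 0.1, their log2 fold changes ranged from -0.98 to 0.48, and 7.26% had an adjusted p under 0.10 in either direction. The 13 members at or below 11 spanned -0.25 to 0.36. Not all of them are genes of low signal. Rps6, Rps16, Rpl39, Rps27, Rpl37, Rpl27a, Rpl12, Rps25 and Rpl14 each had a probe set above 11 that lists other symbols too. The brightest of these gave log2 fold changes from -0.11 (Rpl14) to 0.20 (Rps16). Some bright members hardly varied at all. Rpl41 was at 12.802 to 12.805 over the 6 arrays, and Rps2 was at 12.349 on each control array and at 12.337 to 12.349 on the mutant arrays. Both are among the 31 within 0.1. Whether bright probe sets near the top of the scale understate a change was not tested.

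**Figure D3:**
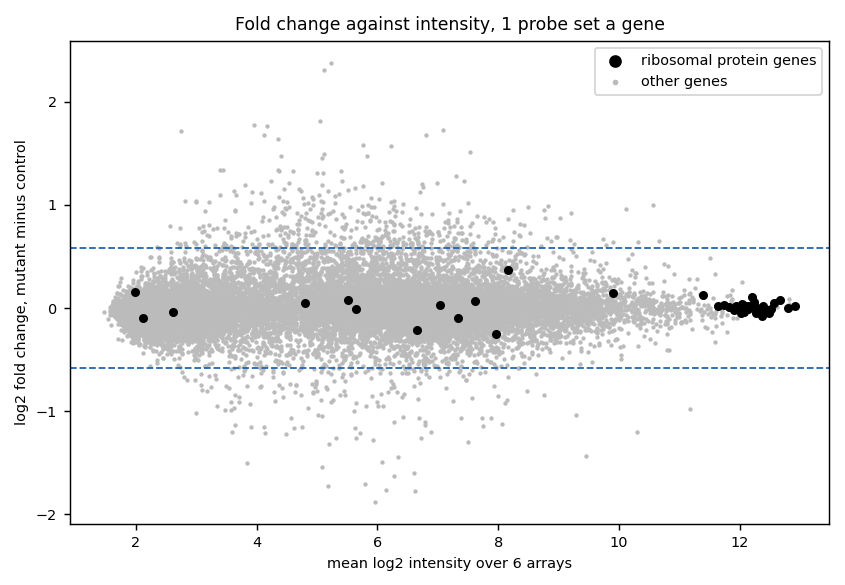
Log2 fold change, mutant minus control (vertical axis), against the mean log2 intensity over 6 arrays (horizontal axis) for 18193 genes, each by its brightest probe set. Black points are the 46 ribosomal protein genes, grey points the other genes and dashed lines a 1.5-fold change. The 33 members above 11 form a tight group between -0.08 and 0.12.

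Rps4l, named for its likeness to the small-subunit gene Rps4x, rose in mutant RPCs. Its log2 intensities were 8.35, 8.34 and 8.36 in mutant RPCs and 7.90, 8.06 and 7.99 in control RPCs. The mutant arrays were almost identical and all lay above the controls. The log2 fold change was 0.36 (standard error, SE, 0.06, 95% interval 0.21 to 0.52, limma adjusted p = 0.026), a rise of 28.7%. RefSeq lists Rps4l as a transcribed pseudogene, the only member of the 46 not listed as protein coding, and places it within the span of Tmtc1. The probe sets of Tmtc1 had log2 fold changes of 0.01 and 0.02. Both lay below the array median of about 3.7 on the log2 scale, at 3.25 and 2.30 in mutant RPCs, so that these changes say little. Only 1 probe set measured Rps4l.

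Its relative Rps4x, the X-linked gene for the Rps4 protein of the ribosome, did not pass the test. It had log2 intensities of 12.37, 12.28 and 12.35 in mutant RPCs and 12.45, 12.31 and 12.38 in control RPCs. These overlapped, and the difference was -0.04 on the log2 scale (95% interval -0.20 to 0.11, limma adjusted p = 0.753).

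Rps27l, the copy of Rps27 that p53 is known to induce, had log2 intensities of 9.99, 9.91 and 10.03 in mutant RPCs and 9.82, 9.82 and 9.84 in control RPCs. The groups did not overlap, but the log2 fold change of 0.15 (SE 0.06, limma adjusted p = 0.224) did not pass the test. The other Rps27l probe sets gave 0.10 and 0.12. With the intensity trend in the variance its adjusted p was 0.042. Rps27 itself, whose protein also binds Mdm2, was at 5.58, 5.55 and 5.55 in mutant RPCs and at 5.50, 5.45 and 5.50 in control RPCs. The difference was 0.08 on the log2 scale (limma adjusted p = 0.478), and a bright probe set listed for both Rps27 and Rps27rt gave 0.08 too (limma adjusted p = 0.468).

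The remaining paralogues, genes whose products can stand in for a parent protein in certain tissues, did not pass the test. Rpl3l, the striated muscle form of Rpl3, was near the bottom of the scale at 2.09, 2.08 and 2.05 in mutant RPCs and 1.97, 1.94 and 1.84 in control RPCs. Its groups did not overlap (log2 fold change 0.16, limma adjusted p = 0.205). For Rpl39l, the germline form of Rpl39, the values were 2.48, 2.67 and 2.64 in mutant RPCs and 2.66, 2.73 and 2.52 in control RPCs, and they overlapped. The log2 fold change was -0.04 for Rpl39l and 0.04 for Rpl39. Rpl22l1 and Rpl7l1, whose symbols fall outside the naming rule, had log2 fold changes of 0.10 (limma adjusted p = 0.372) and -0.11 (limma adjusted p = 0.335). The dimmer Rpl7l1 probe sets gave -0.15 and 0.30, the second with all mutant arrays above all control arrays (limma adjusted p = 0.168).

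At the low end was Rps6, the small-subunit protein that S6 kinases phosphorylate, whose start site is shown above. Its log2 intensities were 7.70, 8.03 and 7.81 in mutant RPCs and 8.05, 8.11 and 8.15 in control RPCs. All mutant arrays were lower, replicate 2 by little. The log2 fold change was -0.25 (SE 0.09, 95% interval -0.47 to -0.04, limma adjusted p = 0.179), and without mutant replicate 2 it was -0.34 with an adjusted p of 0.0949 from limma. A second Rps6 probe set, at 2.44 in both groups, lay below the array median of about 3.7 on the log2 scale, and its log2 fold change of 0.00 says little. The 9 probe sets that list both Rps6 and the pseudogene Rps6-ps4 ranged from -0.10 to 0.22, none was called, and the brightest, at a mean of 12.81, gave -0.01.

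Rpl12, a protein at the base of the ribosomal stalk, had log2 intensities of 6.63, 6.41 and 6.64 in mutant RPCs and 6.72, 6.69 and 6.89 in control RPCs. The log2 fold change of -0.21 did not pass (95% interval -0.42 to 0.00, limma adjusted p = 0.248). The 2 probe sets that list Rpl12 with other symbols gave log2 fold changes of -0.02 and 0.03.

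Rpsa, which is both a small-subunit protein and a laminin receptor precursor, differed little between arrays of a group (SD 0.004 in mutant and 0.013 in control RPCs). It was at 12.34, 12.33 and 12.33 in mutant RPCs and at 12.42, 12.42 and 12.40 in control RPCs. The groups did not overlap and differed by -0.08 on the log2 scale (limma adjusted p = 0.459). In the fit with an intensity trend, in which 9.59% of all genes were higher and 7.82% lower at an adjusted p under 0.10, Rpsa and Rps6 were lower (adjusted p = 0.0368 and 0.088) and Rps4l, Rps27l and Rps29 were higher (adjusted p = 0.00324, 0.042 and 0.0501). That made 2 of 46 members lower and 3 of 46 higher, and all were under 1.5-fold.

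Rps29, a zinc-binding protein of the small subunit, had log2 intensities of 12.72, 12.69 and 12.70 in mutant RPCs and 12.64, 12.63 and 12.60 in control RPCs. Its 3 probe sets gave log2 fold changes of 0.08, 0.08 and 0.04. For Rps28, next to the mRNA exit channel, the values were 12.25, 12.23 and 12.26 in mutant RPCs and 12.08, 12.11 and 12.24 in control RPCs, so that control replicate 3 overlapped the mutant arrays (log2 fold change 0.11, limma adjusted p = 0.415). Rpl27 of the large subunit was at 11.49, 11.43 and 11.44 in mutant RPCs and at 11.29, 11.43 and 11.26 in control RPCs (log2 fold change 0.12, limma adjusted p = 0.351). Rpl37 was at 0.07, and at the low end Rps16 and Rpl14 were at -0.10, Rpl10a and Rps14 at -0.05 and Rpl4 at -0.04, none of which passed. The 3 probe sets that list Rpl37 with Rpl37rt gave 0.09, 0.13 and -0.06. In the first and second, both bright, all mutant arrays lay above all control arrays, and none was called. The Rps16 probe set lay at the bottom of the scale, at 2.07 in mutant RPCs and 2.17 in control RPCs. The 2 probe sets that list Rps16 with other symbols gave 0.01 and 0.20, neither called. The second, at a mean of 12.48, had all mutant arrays above all control arrays. The 5 that list Rpl14 with the pseudogene Rpl14-ps1 ranged from -0.12 to 0.01, with the mutant arrays below the control arrays in 4, and none was called. Among all 45037 probe sets, all mutant arrays lay above all control arrays in 5926 and below them in 6790. Among the 110 probe sets that list a gene of this family with other symbols, they did so in 17 and 11.

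**Figure D4:**
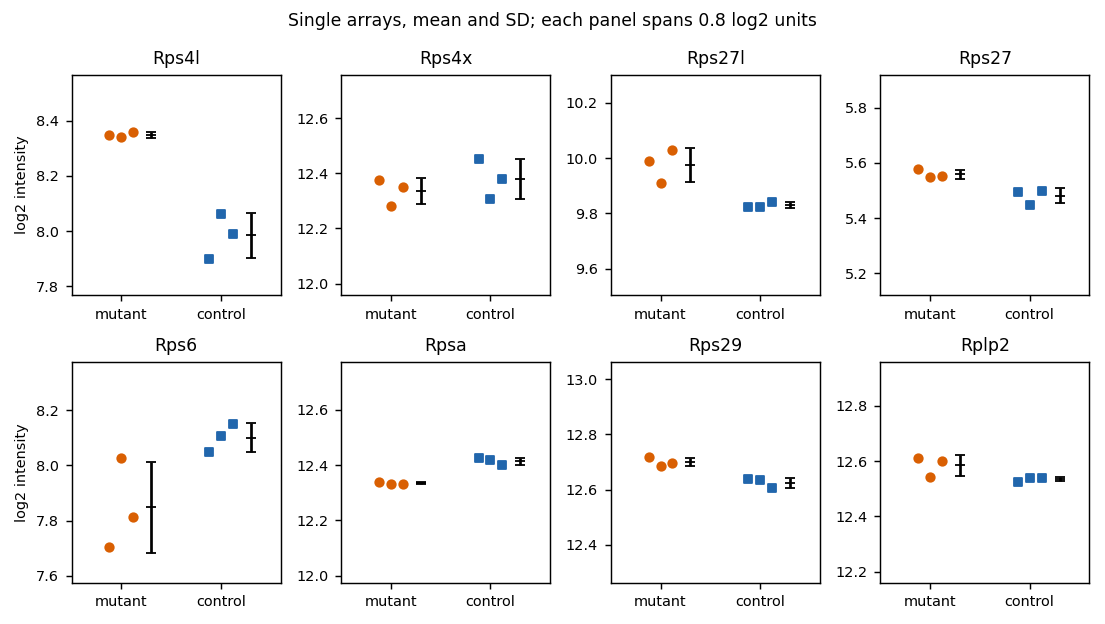
Log2 intensity (vertical axis) of 8 members on the 3 mutant arrays (orange circles, left) and the 3 control arrays (blue squares, right), with the mean and SD of each group as a black bar. Each panel spans 0.8 log2 units. Rps4l shows the widest gap between its groups, and Rps4x overlaps.

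By role, no group of members held a call at 1.5-fold. The stalk, the arm of P proteins that recruits elongation factors, had the members Rplp0 and Rplp2. Rplp1, found only through a probe set of several symbols, was at 0.01. Rplp0, often used as a reference transcript, had log2 intensities of 12.40, 12.41 and 12.39 in mutant RPCs and 12.41, 12.42 and 12.42 in control RPCs (log2 fold change -0.01, 95% interval -0.14 to 0.11). Rplp2 was at 12.61, 12.54 and 12.60 in mutant RPCs and at 12.53, 12.54 and 12.54 in control RPCs (log2 fold change 0.05, limma adjusted p = 0.655). Of 8 listed genes that bind Mdm2, 5 were members, Rpl11, Rps7, Rps3, Rps27 and Rps27l, and their median was 0.033. The median was 0.022 over the 4 members of 8 genes at the exit tunnel, where the new protein leaves. It was 0.033 over the 5 members of 7 genes of the decoding and mRNA channel. For the 11 of 17 listed genes whose human counterparts are mutated in Diamond-Blackfan anaemia, a red cell disorder, the median was 0.023, with a range of -0.02 to 0.12. Of the 9 listed paralogues 4 were members, at 0.36 for Rps4l, which alone passed at an adjusted p under 0.10, and at 0.16 for Rpl3l, 0.15 for Rps27l and -0.04 for Rpl39l.

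Members were also set side by side by their start-site tract. The 18 members with a tract of at least 8 bases had a median log2 fold change of 0.005 (9 above and 9 below 0), and the 22 with a shorter one had a median of 0.012 (13 above and 9 below 0).

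Several probe sets of one gene gave different readings by intensity. Of the 100 member probe sets, 58 had a mean log2 intensity above 11 and a median log2 fold change of 0.016. The 11 between 8 and 11 had a median of 0.093, and the 31 under 8 a median of -0.098, with 21 of them below 0, while the 41089 probe sets of all genes under 8 had a median of -0.023. In 11 genes that had probe sets of both kinds, above 11 and under 8, the dim ones had the lower median log2 fold change in 9. In Rps18, a protein of the small-subunit head, it was -0.26 for the dim and 0.03 for the bright probe sets, and of the 3 dim ones 2 lay below the array median. In Rpl41, the shortest ribosomal protein, it was -0.24 against 0.01, and in Rps24 it was -0.22 against 0.00. Rpl37a and Rps4x were the exceptions. Rpl22, an RNA-binding protein of the large subunit, varied the other way, with 0.03 and -0.03 by its brighter probe sets and 0.23 by its dimmest (limma adjusted p = 0.0767). Of the 31 dim probe sets of members, 13 lay below the array median, where sizes of change are uncertain, and had a median log2 fold change of -0.099, while the 18 above it had a median of -0.074 with 12 below 0. What sets bright and dim probe sets of one gene apart was not tested.

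Names shared between genes limit the view of the family. Of the 46 members, 11 were read by a probe set with the suffix _x_at and 2 by one with _s_at, suffixes that mark probes able to match other transcripts, and the log2 fold changes of the 11 ranged from -0.05 to 0.08. Besides the members, 29 protein-coding genes with such names in RefSeq were found only through probe sets of several symbols, among them Rpl5, Rpl23, Rpl10 and Rplp1. The 110 probe sets that list such a gene with other symbols had a median log2 fold change of 0.005, and 84.5% were within 0.1. None was higher by the 1.5-fold rule and 1 was lower, while of all 45037 probe sets 752 were higher and 443 lower. The lower one of the 110 lists Rpl21 and 6 further symbols, so that no gene can be named for it. Its log2 intensities were 4.37, 3.95 and 4.17 in mutant RPCs and 4.75, 4.83 and 4.86 in control RPCs (log2 fold change -0.65, limma adjusted p = 0.0227). The 2 bright probe sets with the same symbols, at about 11.5, had log2 fold changes of 0.04 and -0.01.

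Other parts of the machinery that makes and degrades proteins held no call either. No gene was called at 1.5-fold among 76 mitochondrial ribosomal protein genes (median log2 fold change -0.027), 13 elongation factor and other TOP genes (-0.034), 25 initiation factor genes (-0.063) or 31 proteasome genes (-0.015). Of the mitochondrial genes, 4 of 76 were lower at an adjusted p under 0.10, while 5.22% of all genes were. They were Mrpl16, Mrpl47, Mrps18b and Mrps22, with log2 fold changes of -0.34 to -0.27. The elongation factor gene Eef1a1 was at 12.84 ± 0.01 in mutant RPCs and 12.85 ± 0.04 in control RPCs (SD, n = 3 each).

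Genes that build ribosomes mostly had fold changes below 0. Among 29 ribosome assembly genes the median log2 fold change was -0.143, 26 were below 0 and none was called at 1.5-fold. At an adjusted p under 0.10, 4 of 29 were lower and none higher, against 5.22% and 7.15% of all genes. Dkc1, the pseudouridine synthase of small nucleolar particles, was at 7.75, 7.79 and 7.81 in mutant RPCs and at 8.22, 8.12 and 8.13 in control RPCs, and so fell by 0.38 on the log2 scale (SE 0.06, limma adjusted p = 0.0187). Wdr12, a large-subunit assembly factor, fell by 0.36 on the log2 scale, Tsr1 by 0.27 and Rrp9 by 0.25. The difference between this list and the members was not tested. In the mTORC1 pathway, which governs TOP mRNAs, 1 of 11 genes was lower at an adjusted p under 0.10, against 5.22% of all genes. It was Eif4ebp2 (-0.34, limma adjusted p = 0.047), and the kinase gene Mtor itself was at -0.17 (limma adjusted p = 0.15).

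Of 10 measured genes of the p53 response, 2 were higher by the 1.5-fold rule and none lower, against 2.28% and 0.918% of all genes. The list had 9 genes above 0 and 1 below it, at -0.22. That gene had an unadjusted p under 0.05 in limma, as did 11.6% of all genes in that direction, but did not pass at an adjusted p under 0.10. Phlda3, an inhibitor of Akt, was at 6.84, 7.0 and 6.86 in mutant RPCs and at 6.31, 5.97 and 6.20 in control RPCs, and so rose by 0.74 on the log2 scale (SE 0.10, limma adjusted p = 0.0115). Pmaip1, which encodes the cell death protein Noxa, had a log2 fold change of 0.68, and Ccng1 was higher at an adjusted p under 0.10 with 0.30. Mdm2 was at 0.03 and Cdkn1a at 0.18, and neither passed.

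**Figure D5:**
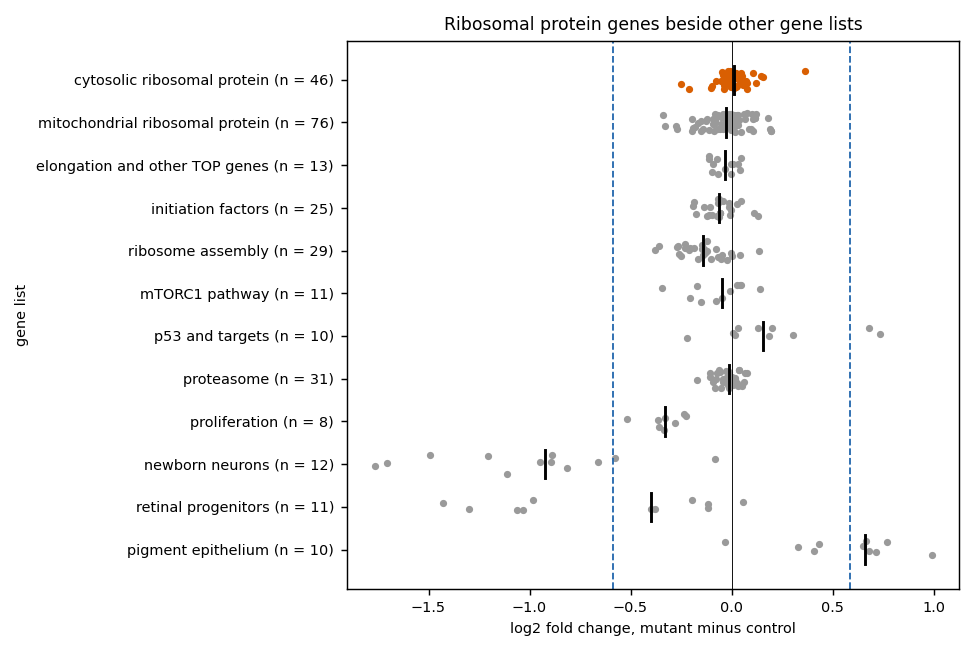
Log2 fold change, mutant minus control (horizontal axis), of the 46 ribosomal protein genes (orange) and of the genes of 11 other lists (grey), each point 1 gene by its brightest probe set. Black bars are medians and dashed lines a 1.5-fold change. The ribosomal protein genes centre on 0.012, while ribosome assembly genes centre on -0.143.

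In the same arrays marker transcripts of the labelled cell type and its neighbours differed between the groups. No cell type was counted. The probe set of Pax6 that was called was at 4.79, 4.88 and 4.45 in mutant RPCs and at 6.34, 6.44 and 6.14 in control RPCs, while 4 more Pax6 probe sets did not meet the rule. The brightest of Pax6 was among these 4, at a mean of 9.942 in mutant RPCs and 10.055 in control RPCs (log2 fold change -0.11, limma adjusted p = 0.306). The rest gave -0.22, 0.10 and -0.12. Of 11 retinal progenitor genes 5 were lower by the 1.5-fold rule, of 12 genes of newborn neurons 9 were lower, and of 8 proliferation genes all 8 were lower at an adjusted p under 0.10 and none by the 1.5-fold rule. Over all genes 2.28% were higher and 0.918% lower by the 1.5-fold rule, and 5.22% were lower at an adjusted p under 0.10. Of 10 pigment epithelium genes 6 were higher, and their summed linear intensity was 8831 to 8889 in mutant RPCs and 5582 to 6770 in control RPCs. For 11 lens and surface ectoderm genes, 3 of them higher, the sum was 5188 to 5499 in mutant RPCs and 2890 to 4056 in control RPCs. For 10 mesenchyme genes, 5 of them higher, it was 844 to 1166 in mutant RPCs and 538 to 579 in control RPCs. For 9 endothelial genes, 4 of them higher, it was 1031 to 1103 in mutant RPCs and 580 to 808 in control RPCs. Of 6 photoreceptor precursor genes 2 were higher, and of 9 blood genes 1 was. Whether other cell types had a part in the rise of Rps4l or in the level of any other member was not tested. In such pools fewer cells of a type and less RNA per cell cannot be told apart.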

How the data were processed

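Each pool was hybridised to 1 Affymetrix array. The authors summarised probe sets by RMA, which corrects the background and gives all arrays one distribution, and the deposited values are intensities on a linear scale with array medians of 12.9 to 13.1. A change shared by all transcripts of an array is not visible after that step. RMA and Affymetrix Expression Console stand in the submitters' processing notes without a version. Log2 was taken, 64 control probe sets were left out and 45037 were fitted with limma 3.58.1 in R 4.3.3, mutant against control without a block, with p-values adjusted over all probe sets by Benjamini and Hochberg. Of these, 34945 had 1 symbol in the platform annotation, 932 several and 9160 none. All 46 member symbols matched RefSeq (GRCm38.p6). The fit was tested on simulated data. Arrays have no read depth, and 3 arrays a group limit the precision. All pairs of arrays correlated at 0.991 to 0.997.

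Members, lists and tests were chosen with earlier results of these data known. Genes were named by a rule: members called at 1.5-fold, the 8 lowest and 8 highest fold changes, stalk genes, members of role lists with an adjusted p under 0.10, paralogues with their parents, Rpl21, Pax6, and up to 5 called genes of each other list. Genes named beyond it, such as those of the lower-threshold counts, Rps3, Rpl38, Rpl7, Rps18, Rpl41, Rps24, Rpl22, Eef1a1, Mtor, Mdm2 and Cdkn1a, were chosen after their values were seen. Alternatives tried were other scaling, variance models, array weights, filters, other choices of probe set and leaving out each array.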

Additional observations from a re-analysis of the deposited data

How the results depend on the processing

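With 3 arrays in each group, small differences rest on single arrays. No member was called at 1.5-fold under any of the 16 alternatives. Those that change only the variance, or leave out other probe sets, keep the fold changes and could give no call. Members lower at an adjusted p under 0.10 in limma numbered 0, against 1 without moderation of the variance (Rpsa), 2 with an intensity trend and 0 to 1 without 1 array at a time (1, Rps6, without mutant replicate 2). Members higher numbered 1, against 3 with an intensity trend. The median log2 fold change of the members, 0.012, was 0.023 with array medians subtracted, -0.003 after quantile normalization and -0.0014 to 0.0234 without 1 array at a time, lowest without control replicate 1 and highest without mutant replicate 2, so that its sign is not settled. The large-subunit median, -0.005, also changed sign, to 0.0056 with array medians subtracted, to 0.0054 without control replicate 2 and to 0.0099 when probe sets of several symbols were included, an alternative chosen after seeing the data. The small-subunit median, 0.0211, stayed above 0 at 0.0091 (without control replicate 1) to 0.032 (array medians subtracted). For the 21 named members, 302 of 312 values under the alternatives kept their direction and their side of the threshold, 6 passed it and 4 changed sign. Many of the 312 could not change direction. The variance models, the replicate block and the intensity filter leave fold changes as they are, and other probe set choices do so for genes with 1 probe set. Rps4x was at 0.0083 by the median of its probe sets. Without 1 array at a time, Rpl39 and Rpl39l changed sign, Rpl39 between -0.0221 (without mutant replicate 3) and 0.079, and Rpl39l between -0.0978 and 0.0197 (without mutant replicate 1), also above 0 without control replicate 2 (0.0095). Rps4l kept an adjusted p of 0.00324 to 0.0926 and a log2 fold change of 0.32 to 0.40. Replicate numbers did not pair the samples (same-number correlations of -0.011, -0.001 and -0.008). With a replicate block, which leaves the fold changes and their median as they are, 1 member was higher at an adjusted p under 0.10, Rps4l (adjusted p = 0.0741).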
